A study of Mus musculus with 8 samples.

Results

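The genes described here are 38 type I interferon-stimulated genes, taken as the rows of the deposited gene count table whose gene name is on a list of that size, out of 54532 gene rows. All 38 had a row and counts, and all passed the expression filter. The list was drawn up with earlier results of these libraries in view. The cells were mouse peritoneal cavity macrophages, taken after stimulation with thioglycollate broth, which provokes a sterile inflammation there, and the design compares WT cells with cells carrying a knockout of Men1, the gene of the chromatin scaffold protein menin. Every group shares the thioglycollate stimulation. The 8 libraries are M_WT_5643, M_WT_6258 and M_WT_6255, M_KO_5944, M_KO_5645 and M_KO_5642, F_WT_5638 and F_KO_5639. They are named by letter, genotype and number as in the titles, and values by library follow this order throughout. The number is read here as that of an animal, which the labels do not state. What M and F stand for, the strain, the age, how the knockout was made, which cells it affects and whether cells were purified after lavage are all details not given in the sources used here. Each title carries its own number, so p-values measure the spread between these samples.

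Type I interferons signal through the receptor IFNAR, whose kinases are JAK1 and TYK2. A complex that contains STAT2 and IRF9 then binds the interferon-stimulated response element (ISRE) and switches on a large set of genes together, many of which block viral RNA, protein synthesis or budding. Macrophages hold a tonic level of this program in the absence of infection, fed by small amounts of interferon beta, and raise it steeply when nucleic acid sensors or Toll-like receptors are engaged. Some of the induced genes (Irf7, Stat2, Irf9, Ifih1, Ddx58) belong to the pathway itself, so the program feeds forward.

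Total counts ran from 18206427 to 22853583 per library, of which the 38 genes took 0.139% to 0.665%. Mitochondrial transcripts took 1.08% to 1.36% of counts. Men1 was at 25.7, 17.1 and 21.4 CPM (the count scaled to library size with TMM factors) over the M_WT libraries. Over the M_KO libraries it was at 8.15, 6.45 and 8.42 CPM. It was thus lower in each M_KO than in each M_WT library, and transcript remained in all of them. F_WT_5638 had 18.1 CPM of this gene and F_KO_5639 had 11.7 CPM, which was more than any M_KO library. The macrophage markers Adgre1 (1209 to 2112 CPM) and Csf1r (1235 to 2097 CPM) were high in every library. The listed macrophage markers summed to 20942 to 32222 CPM in M_WT and 18140.1 to 20788 CPM in M_KO, lower in all M_KO libraries. The largest part of that sum was Lyz2, at 20548, 14216 and 12867 CPM in M_WT and 9063, 11465 and 11522 CPM in M_KO. Of the 10 markers, 5 had lower and 5 higher fitted values in M_KO (48.5% of all genes were lower), with a median log2 fold change of 0.01. M_KO_5944 stood apart from the other M_KO libraries in most of the results on these genes. Values without it are given for the counts over the list, for the score and for the 8 genes described with values in every library by rule. M_KO_5944 was singled out by its levels of these same genes, so larger differences without it follow from that choice.

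RefSeq promoter windows (GRCm38.p6, 250 bases before to 50 after a start site) matched 27 of the 38 genes by symbol. The ISRE core, written as GAAA, any 2 bases and GAAA again and searched on both strands and with overlapping matches counted, was present in 14 of those 27 genes, or 45.2% of their 31 windows, against 3.44% of all 32851 windows. The gamma-activated site core TTCNNNGAA, which reads the same on both strands, was in 7 genes (22.6% of windows, 8.30% of all windows). A match is a description of the letters in this window and does not show binding. The 150 bases before the start site are printed for 6 genes with a match there (Ifit1, Ifit3, Isg15, Bst2, Rsad2 and Oas1a), because they show how the element differs in number, strand and distance, and for Oasl1 and Irf7, which have none in the whole window but whose M groups did not overlap. Capitals mark ISRE core matches.
Ifit1 (GRCm38 chr19:34640739-34640888, plus strand): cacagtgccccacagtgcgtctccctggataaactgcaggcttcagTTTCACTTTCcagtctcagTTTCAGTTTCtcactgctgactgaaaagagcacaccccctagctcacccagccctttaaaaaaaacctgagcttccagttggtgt
Ifit3 (GRCm38 chr19:34583379-34583528, plus strand): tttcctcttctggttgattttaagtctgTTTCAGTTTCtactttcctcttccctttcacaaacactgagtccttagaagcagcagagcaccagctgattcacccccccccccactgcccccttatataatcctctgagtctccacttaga
Isg15 (GRCm38 chr4:156200819-156200968, minus strand): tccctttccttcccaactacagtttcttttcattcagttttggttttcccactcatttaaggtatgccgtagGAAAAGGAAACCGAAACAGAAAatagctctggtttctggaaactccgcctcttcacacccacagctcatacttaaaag
Bst2 (GRCm38 chr8:71537473-71537622, minus strand): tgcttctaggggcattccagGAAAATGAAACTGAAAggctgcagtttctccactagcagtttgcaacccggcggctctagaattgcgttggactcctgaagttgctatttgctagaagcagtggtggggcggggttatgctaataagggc
Rsad2 (GRCm38 chr12:26456453-26456602, minus strand): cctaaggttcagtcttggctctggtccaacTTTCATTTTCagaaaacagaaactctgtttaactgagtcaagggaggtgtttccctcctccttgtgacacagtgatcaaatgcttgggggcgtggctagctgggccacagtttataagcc
Oas1a (GRCm38 chr5:120907526-120907675, minus strand): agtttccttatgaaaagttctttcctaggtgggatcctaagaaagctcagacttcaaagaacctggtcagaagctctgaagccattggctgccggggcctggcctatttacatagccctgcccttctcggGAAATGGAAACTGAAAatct
Oasl1 (GRCm38 chr5:114923090-114923239, plus strand): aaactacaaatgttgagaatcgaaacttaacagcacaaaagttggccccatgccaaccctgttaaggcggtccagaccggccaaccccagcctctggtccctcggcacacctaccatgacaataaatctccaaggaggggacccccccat
Irf7 (GRCm38 chr7:141266425-141266574, minus strand): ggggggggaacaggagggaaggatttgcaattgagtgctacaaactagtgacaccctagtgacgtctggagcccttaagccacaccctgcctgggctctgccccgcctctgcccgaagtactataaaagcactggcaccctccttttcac
Isg15 held 3 overlapping matches in 1 run, Bst2 and Oas1a 2 overlapping matches each, Ifit1 2 separate matches, and Ifit3 and Rsad2 1 each in this stretch. Oasl1 and Irf7 held 0, which says only that these letters are not in this window.

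The level of the program divided the M_KO animals. Each library was scored by the mean log2 CPM of the 38 genes. The score was 6.92, 6.42 and 5.85 in M_WT_5643, M_WT_6258 and M_WT_6255, 6.19, 3.77 and 3.97 in M_KO_5944, M_KO_5645 and M_KO_5642, 4.76 for F_WT_5638 and 4.71 for F_KO_5639. M_KO_5944 lay inside the M_WT range, above M_WT_6255, while M_KO_5645 and M_KO_5642 were the lowest of all 8 libraries and both F libraries came next, whatever their genotype. The means were 6.40 ± 0.53 in M_WT and 4.64 ± 1.34 in M_KO (SD, n = 3 each), a difference of -1.75, and the M_KO libraries spanned 2.42 on this scale against 1.07 in M_WT. Without M_KO_5944 the difference was -2.53. The genes together took 0.139% and 0.178% of counts in M_KO_5645 and M_KO_5642 and 0.665% in M_WT_5643. In bulk RNA, fewer cells that run the program and less of its RNA per cell cannot be told apart.

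**Figure D1:**
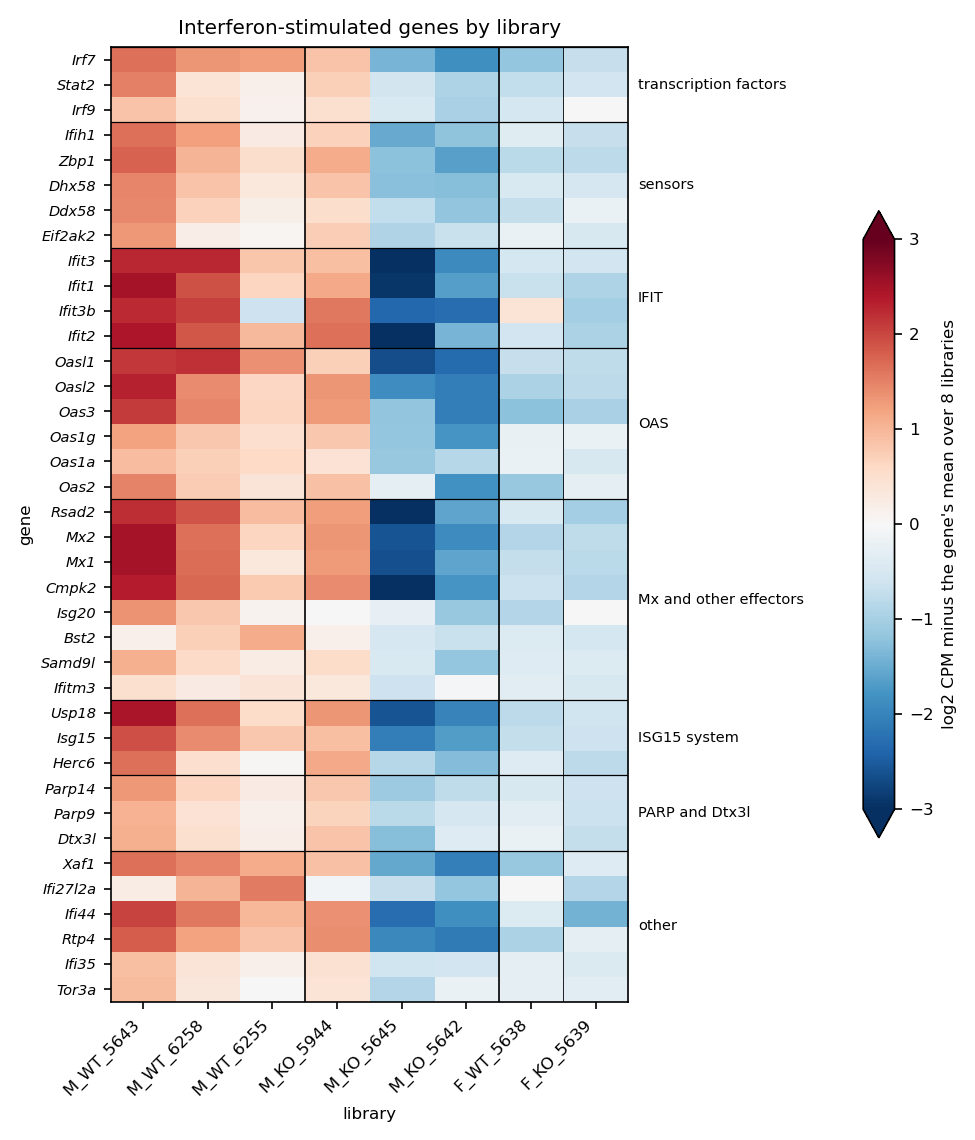
Heat map of the 38 genes (rows, grouped by role) in the 8 libraries (columns), coloured by log2 CPM minus the gene's mean over the 8 libraries. Levels under 3 counts were set to that floor and colours stop at the ends of the scale. M_KO_5645 and M_KO_5642 are the 2 lowest of the 6 M libraries for all 38 genes, and M_KO_5944 resembles the M_WT columns.

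For all 38 genes, M_KO_5645 and M_KO_5642 were the 2 lowest of the 6 M libraries, which held for 10.5% of all 13646 tested genes. M_WT_5643 was the highest M library for 35 genes (16.5% of all genes), and the exceptions were Oasl1, highest in M_WT_6258, and Bst2 and Ifi27l2a, highest in M_WT_6255. Within M_WT, the order M_WT_5643, M_WT_6258, M_WT_6255 from high to low held for 34 genes (17.3% of all genes). M_KO_5944 was above the lowest M_WT library for 32 genes (76.6% of all genes) and above the highest for 0. Against the M_WT libraries, F_WT_5638 was below all 3 for 37 genes, all but Ifit3b (25% of all genes), and F_KO_5639 for 38 (29.4%). The shares over all genes show how often a gene takes each of these orders in the same libraries.

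In M_KO against M_WT, all 38 genes had a lower fitted value, as did 48.5% of all tested genes, with a median log2 fold change of -1.27 (range -2.53 to -0.44) beside 0.01 over all genes. None passed the threshold: edgeR's quasi-likelihood test called 0 of 38 at an adjusted p under 0.05 (0.022% of all genes were called, and 0.00733% were called lower), with adjusted p from 0.434 to 0.729. At an unadjusted p under 0.05, 7 were lower, against 4.22% of all genes. That number was 38 without M_KO_5944 (6.09% of all genes), 3 without M_KO_5645 (3.43%) and 3 without M_KO_5642 (4.32%). It was 2 without M_WT_5643 (4.78% of all genes), 3 without M_WT_6258 (2.04%) and 8 without M_WT_6255 (2.93%). DESeq2 called 1, Ifi27l2a (adjusted p = 0.00962; 1.21% of all genes called), and the authors' deposited table calls 2, Ifi27l2a (adjusted p = 0.00403) and Oasl1 (adjusted p = 0.037; 0.553% of its rows). The 3 M_KO libraries lay below the 3 M_WT libraries without overlap for 6 genes (Irf7, Oas1a, Oasl1, Isg20, Xaf1 and Ifi27l2a), or 15.8%, against 6.95% of all genes. Without M_KO_5944 this number was 38 (13.9% of all genes), and the median log2 fold change was -2.41. In that setting edgeR called 2 genes, Oasl1 and Irf7 (edgeR adjusted p = 0.0466 for each), against 0.0354% of all genes called. Without M_WT_6255 the number without overlap was 24 (11.1% of all genes). It was 7 without M_WT_5643 (14.8%) and 7 without M_WT_6258 (9.75%), and 6 without M_KO_5645 (10.5%) and 6 without M_KO_5642 (13.4%). The rise to 38 was set by the choice of M_KO_5944, which was made on the levels of these genes.

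**Figure D2:**
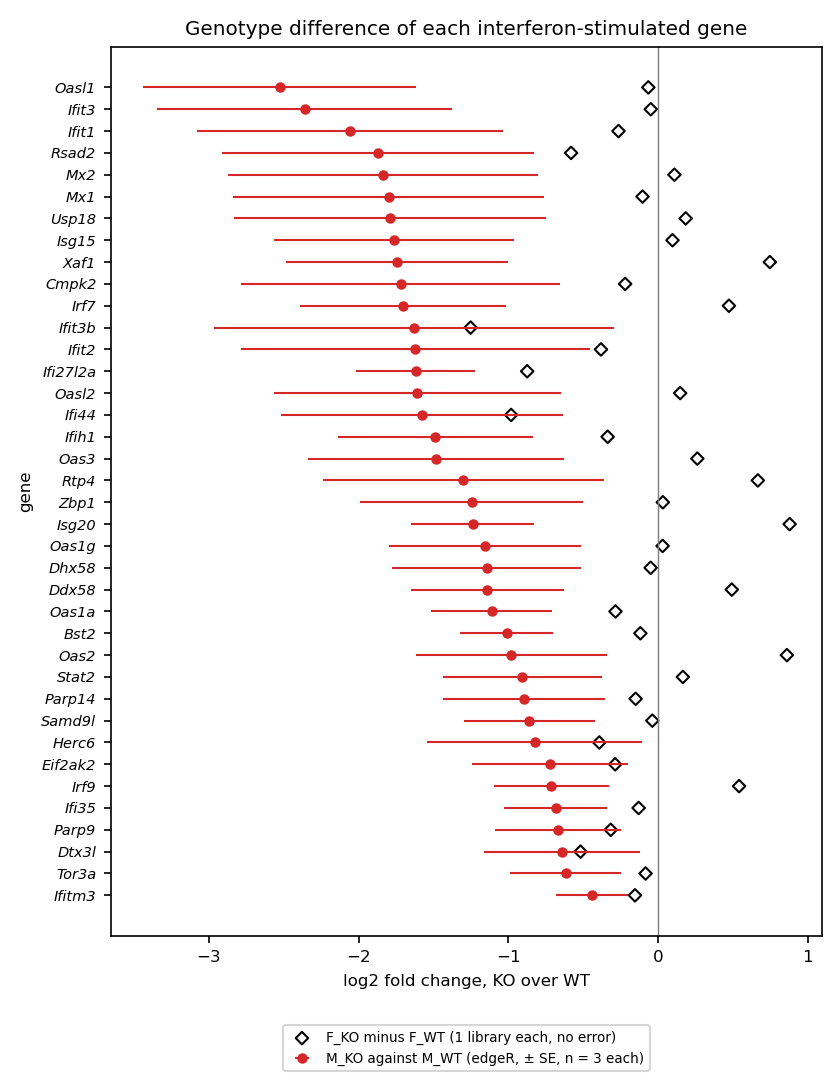
Log2 fold change of KO over WT (x axis) for each of the 38 genes (y axis), with edgeR values and SE for 3 M_KO against 3 M_WT libraries as filled points and the F_KO minus F_WT difference of log2 CPM, 1 library each, as open diamonds. All filled points lie below 0, from -2.53 to -0.44, and the diamonds scatter around 0.

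Spread within groups was wide. The SD of log2 CPM between libraries of a group had a median of 0.59 over these genes in M_WT and 1.34 in M_KO, against 0.23 and 0.28 over all tested genes. The fit's biological coefficient of variation had a median of 0.55 for these genes and 0.243 for all genes. The gap between animals of 1 genotype was large for single genes too: M_KO_5944 held 49.8 times as much Ifit2 and 22.4 times as much Rsad2 per library size as M_KO_5645, but 1.18 times as much Isg20. Over all 8 libraries the highest level was 2.12 times the lowest for Ifitm3 and 84.8 times for Ifit2, the smallest and largest such ratios among the 37 genes with more than 3 counts in every library.

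Levels per gene length differed widely within the list. In FPKM (fragments scaled by the authors to gene length and library size), Ifitm3 had the highest M_WT mean, 1206 ± 92.2 (SD, n = 3), followed by Ifi27l2a at 427 ± 183, Isg15 at 159.9 ± 61.5, Bst2 at 125 ± 40.1, Oasl1 at 96.3 ± 27.7, Parp14 at 75.6 ± 28.9, Rsad2 at 71.6 ± 29.7 and Ifit1 at 68.9 ± 38.6 FPKM. From Isg15 down to Ifit1, neighbours in this order did not differ beyond their SD. Herc6 at 4.63 ± 2.82 FPKM and Ifit3b at 1.24 ± 0.867 FPKM were the lowest.

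The transcription factors of the pathway come first. IRF7 is the factor that amplifies interferon gene expression once induced, and STAT2 and IRF9 are the subunits that bring the signalling complex to the ISRE. Irf7 (ENSMUSG00000025498, chromosome 7, 141262706 to 141266481) was at 202, 161 and 154 CPM in the M_WT libraries, 116, 24.6 and 18.1 CPM in the M_KO libraries, 28.6 CPM for F_WT and 39.8 CPM for F_KO. All 3 M_KO libraries were below all M_WT libraries, with M_KO_5944 nearest to them and the F libraries close to M_KO_5645. The means were 172 ± 26 CPM in M_WT and 53 ± 54.9 CPM in M_KO (SD, n = 3 each; edgeR log2 fold change -1.71, SE 0.69, adjusted p = 0.511; log2 fold change -3.01 without M_KO_5944). The fold change was -0.91 for Stat2 and -0.71 for Irf9 (log2), and in both genes M_KO_5944 overlapped M_WT. Irf7 overlaps Phrf1 and Irf9 overlaps Rnf31 on the annotation, and the strand setting of the counting is not given, so some reads may be shared.

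The sensors detect foreign nucleic acid: MDA5 (Ifih1) and RIG-I (Ddx58) bind double-stranded RNA in the cytosol, LGP2 (Dhx58) modulates both, ZBP1 binds Z-form nucleic acid and starts cell death, and PKR (Eif2ak2) halts translation. Ifih1 (ENSMUSG00000026896, chromosome 2, 62595798 to 62646255) was at 472, 348 and 177 CPM in the M_WT libraries, 240.0, 52.2 and 64.3 CPM in the M_KO libraries, 116 CPM for F_WT and 91.9 CPM for F_KO. M_KO_5944 was above M_WT_6255, and M_KO_5645 and M_KO_5642 were below both F libraries. Its means were 332 ± 148 CPM in M_WT and 119 ± 105 CPM in M_KO (SD, n = 3 each; edgeR log2 fold change -1.49, SE 0.65, adjusted p = 0.535; log2 fold change -2.52 without M_KO_5944). The other sensors had log2 fold changes from -1.25 to -0.72, and each of them overlapped between groups through M_KO_5944.

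The IFIT proteins bind viral RNA that lacks the host's cap methylation. They are among the most inducible genes of the program, and here Ifit2 and Ifit3 had the largest ratios of highest to lowest library of the list. Ifit1 (ENSMUSG00000034459, chromosome 19, 34640871 to 34650009), with the 2 ISRE cores printed above, was at 282, 188 and 78.7 CPM in the M_WT libraries, 109.7, 6.66 and 16 CPM in the M_KO libraries, 31.6 CPM for F_WT and 26.3 CPM for F_KO. M_KO_5944 lay between the M_WT libraries, and the other M_KO libraries were lower than both F libraries. Its means were 183 ± 102 CPM in M_WT and 44.1 ± 57 CPM in M_KO (SD, n = 3 each; edgeR log2 fold change -2.06, SE 1.02, adjusted p = 0.564; log2 fold change -4.02 without M_KO_5944). Ifit3 was at 30.2, 30.1 and 11.2 CPM in the M_WT libraries, 11.8, 0.666 and 1.68 CPM in the M_KO libraries, 4.35 CPM for F_WT and 4.20 CPM for F_KO, with a log2 fold change of -2.36 (SE 0.99, edgeR), and Ifit2 had -1.62. Ifit3b, a close copy of Ifit3, had 75, 61 and 10 counts in M_WT and 41, 0 and 4 in M_KO, and reads of the pair may have been split between them.

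The OAS enzymes make a short oligoadenylate messenger on binding double-stranded RNA and so activate RNase L, while the OAS-like proteins have other antiviral roles. Oasl1 (ENSMUSG00000041827, chromosome 5, 114923240 to 114937915), the gene with the most negative fold change of the list, was at 285, 299 and 169.7 CPM in the M_WT libraries, 108, 10.5 and 13.3 CPM in the M_KO libraries, 40.6 CPM for F_WT and 38.9 CPM for F_KO. Here M_KO_5944 was below all M_WT libraries, so the groups did not overlap. Its means were 251 ± 71 CPM in M_WT and 43.8 ± 55.4 CPM in M_KO (SD, n = 3 each; edgeR log2 fold change -2.53, SE 0.91, adjusted p = 0.478; log2 fold change -4.41 without M_KO_5944). Oas1a was at 116, 101 and 91.9 CPM in the M_WT libraries, 82, 27.9 and 33.7 CPM in the M_KO libraries, 53.5 CPM for F_WT and 44 CPM for F_KO and did not overlap between the M groups either (log2 fold change -1.11, SE 0.40). Oas2, Oas3, Oas1g and Oasl2 had log2 fold changes from -1.61 to -0.98, with M_KO_5944 inside the M_WT range in each. Oas1a and Oas1g are close copies, and reads of the pair may have been split between them.

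Among the effectors that act on the virus itself, the Mx GTPases trap viral nucleocapsids, viperin (Rsad2) and its neighbour Cmpk2 make a chain-terminating nucleotide, tetherin (Bst2) holds budding virions at the membrane, IFITM3 blocks fusion, ISG20 is an RNA exonuclease and SAMD9L restrains translation and growth. Ifitm3 (ENSMUSG00000025492, chromosome 7, 141009586 to 141010770) was at 874, 752 and 832 CPM in the M_WT libraries, 785, 413 and 621 CPM in the M_KO libraries, 504 CPM for F_WT and 454 CPM for F_KO. It had the least difference of the list, with M_KO_5944 inside the M_WT range and both F libraries lower than M_KO_5642. Its means were 819 ± 61.7 CPM in M_WT and 607 ± 187 CPM in M_KO (SD, n = 3 each; edgeR log2 fold change -0.44, SE 0.24, adjusted p = 0.592; log2 fold change -0.67 without M_KO_5944). Rsad2 was at 422, 338 and 172 CPM in the M_WT libraries, 215, 9.63 and 30.3 CPM in the M_KO libraries, 66.4 CPM for F_WT and 44.3 CPM for F_KO. Rsad2, Cmpk2, Mx1 and Mx2 had log2 fold changes from -1.87 to -1.72 (SE 1.03 to 1.07), and in each of them M_KO_5944 was above M_WT_6255. Isg20 (log2 fold change -1.24) and Samd9l (-0.86) were at 10.02 and 188 CPM in M_WT on average.

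ISG15 is a ubiquitin-like protein that is attached to other proteins, in mice by the ligase HERC6, and removed by USP18, which also damps the interferon receptor. Isg15 (ENSMUSG00000035692, chromosome 4, 156199424 to 156200818) was at 168, 117 and 77 CPM in the M_WT libraries, 83, 10.5 and 13.9 CPM in the M_KO libraries, 26.8 CPM for F_WT and 28.7 CPM for F_KO. The order of animals was that of the score except within the F pair, with M_KO_5944 above M_WT_6255. Its means were 121 ± 45.8 CPM in M_WT and 35.8 ± 40.9 CPM in M_KO (SD, n = 3 each; edgeR log2 fold change -1.76, SE 0.80, adjusted p = 0.547; log2 fold change -3.31 without M_KO_5944). Usp18 had a log2 fold change of -1.79 (SE 1.04) and Herc6 of -0.82 (SE 0.72), and both overlapped between groups. PARP9 and DTX3L form a complex that ADP-ribosylates and ubiquitylates, and PARP14 is a mono-ADP-ribosyltransferase of macrophages. Parp14 (ENSMUSG00000034422, chromosome 16, 35832874 to 35871544) was at 997, 634 and 481 CPM in the M_WT libraries, 709, 189.8 and 240.0 CPM in the M_KO libraries, 292 CPM for F_WT and 263 CPM for F_KO, with means of 704 ± 265 CPM in M_WT and 379.6 ± 286 CPM in M_KO (SD, n = 3 each; edgeR log2 fold change -0.90, SE 0.54, adjusted p = 0.622; log2 fold change -1.72 without M_KO_5944). Parp9 and Dtx3l lie head to head and overlap on opposite strands, so some of their reads cannot be told apart, and their log2 fold changes were -0.66 and -0.64.

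Ifi27l2a and Bst2 reversed the M_WT order that held for 34 genes, and Oasl1 and Ifitm3 departed from it in part. Ifi27l2a (ENSMUSG00000079017, chromosome 12, 103442167 to 103443680), a small interferon-induced membrane protein, was at 114, 195 and 287 CPM in the M_WT libraries, 91, 60.2 and 43.3 CPM in the M_KO libraries, 97.2 CPM for F_WT and 53 CPM for F_KO. M_WT_6255, the lowest M_WT library by score, was here the highest of all 8, M_WT_5643 was the lowest of M_WT, and all M_KO libraries were below them. The means were 199 ± 86.7 CPM in M_WT and 64.8 ± 24.2 CPM in M_KO (SD, n = 3 each; edgeR log2 fold change -1.62, SE 0.40, adjusted p = 0.434; log2 fold change -1.94 without M_KO_5944), and this was the gene with the smallest edgeR p of the list. Bst2 was at 76.5, 113 and 151 CPM in the M_WT libraries, 76.7, 48.9 and 43.9 CPM in the M_KO libraries, 51.8 CPM for F_WT and 47.8 CPM for F_KO. It shared the M_WT order of Ifi27l2a, but M_KO_5944 reached the level of M_WT_5643 (edgeR log2 fold change -1.01, SE 0.31, adjusted p = 0.474). Of the remaining genes, Xaf1 (-1.74), Ifi44 (-1.58) and Rtp4 (-1.30) had more negative log2 fold changes than Ifi35 (-0.68) and Tor3a (-0.62).

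**Figure D3:**
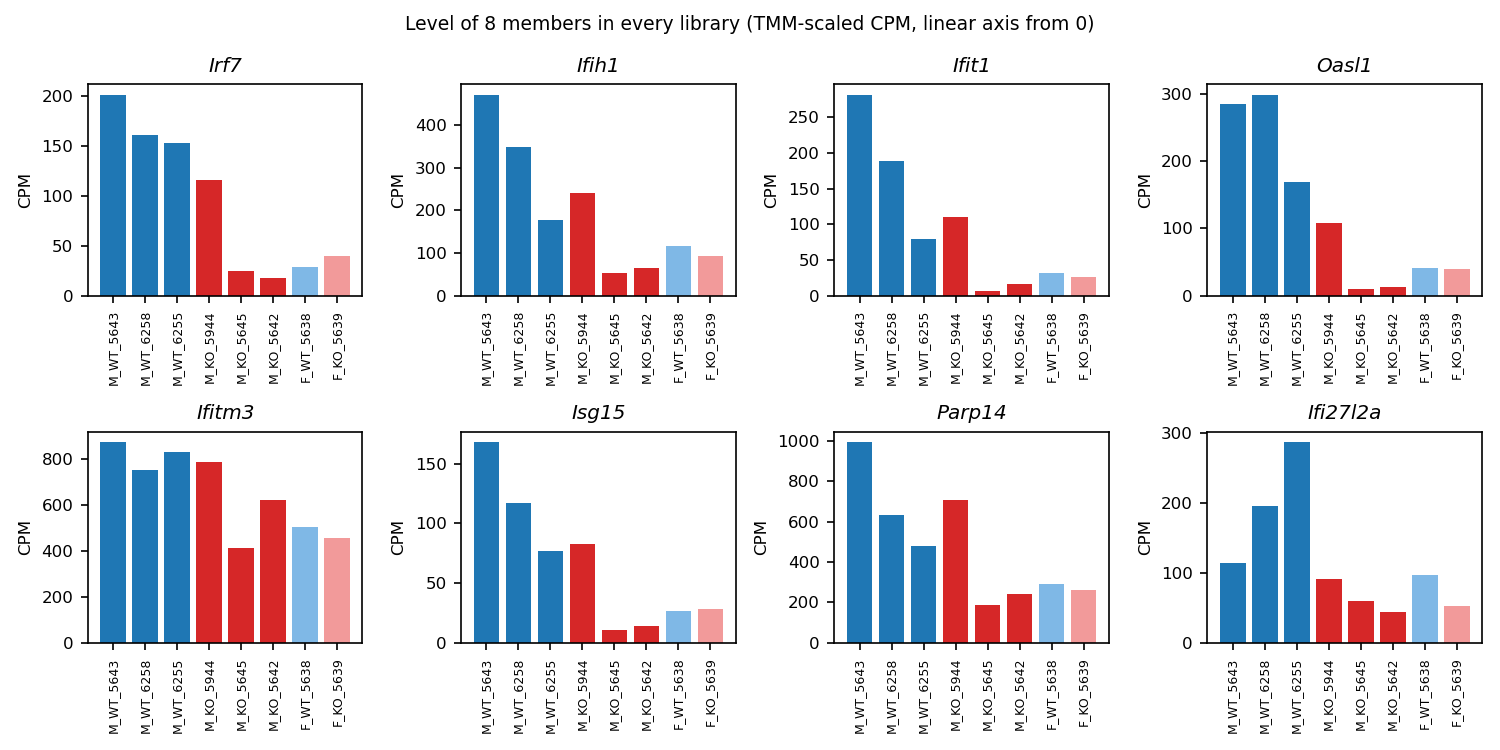
CPM (y axes, linear from 0, TMM-scaled) of 8 genes in each of the 8 libraries, 1 bar per library, blue for WT and red for KO with the F libraries in paler shades. For Ifit1 the bars of M_KO_5645 and M_KO_5642 stand at 6.66 and 16 CPM and that of M_KO_5944 at 109.7 CPM, while the M_WT bars of Ifi27l2a rank in the opposite order to those of Ifit1.

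The F pair, 1 library per genotype and so without a test, showed no common direction. F_KO_5639 was lower than F_WT_5638 for 23 genes and higher for 15 (51.6% of all genes were lower), with a median difference of log2 CPM of -0.07. The largest differences were in Ifit3b (-1.25), Ifi44 (-0.98) and Ifi27l2a (-0.87) among the lower and Isg20 (0.88), Oas2 (0.86) and Xaf1 (0.75) among the higher genes. With genotype and letter as terms over all 8 libraries, all 38 fitted genotype values were negative (median -0.92), edgeR called 0 (0.00727% of all genes), and 3 had an unadjusted p under 0.05 (9.48% of all genes). The interaction of genotype and letter, which tests whether the genotype difference was unlike in F and M, called 0 (0.0218% of all genes; lowest edgeR adjusted p 0.965), with 1 at an unadjusted p under 0.05, Isg20, against 4.36% of all genes. The interaction takes its spread from the M libraries and has no replicate check in F. Men1 itself differed less between F_KO_5639 and F_WT_5638 (difference of log2 CPM -0.63) than between the M groups (edgeR log2 fold change -1.49). Whether this bears on the F values of the 38 genes was not tested.

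Upstream of the program, few or no counts fell on interferon genes. Of 19 ligand genes, 15 had no count in any library, where the counting floor was 0.12 to 0.17 CPM (3 counts). This floor covers counting error only. The treatment of multi-mapping reads is not given, so 0 counts set no limit on transcripts whose reads match more than 1 gene. Ifnb1, interferon beta, had 2, 7 and 6 counts in M_WT, 6, 0 and 2 in M_KO, 3 for F_WT and 1 for F_KO, too few to compare. Ifng, interferon gamma, had 9 counts in M_KO_5944 and 0 to 2 in the other libraries. Of 16 genes of the receptor and its signalling chain, 11 had lower and 5 higher fitted values in M_KO (48.5% of all genes were lower). Their median log2 fold change was -0.16 (range -1.62 to 0.60). Socs3 (-0.88, SE 0.60) and Jak2 (-0.59, SE 0.30) had the most negative estimates after Socs1. EdgeR called 0 (0.022% of all genes), DESeq2 called 0 (1.21%), and 4 had an unadjusted edgeR p under 0.05 (9.56% of all genes). Of those, 1 was lower in M_KO, Socs1, and the others were higher, with M groups that did not overlap: Ptpn6, the phosphatase SHP-1 that damps cytokine signalling (log2 fold change 0.60, SE 0.16), the receptor kinase Tyk2 (0.34, SE 0.13) and the interferon gamma receptor chain Ifngr1 (0.28, SE 0.11). M_KO lay above M_WT without overlap for 3 of these 16 genes and for 1240 of all 13646 tested genes. Ifnar1 was at 327 ± 20.5 CPM in M_WT and 284 ± 58.3 CPM in M_KO and Ifnar2 at 244 ± 23.6 CPM in M_WT and 191 ± 41.6 CPM in M_KO (SD, n = 3 each), with log2 fold changes of -0.21 (SE 0.17) and -0.36 (SE 0.18), small beside the spread of the induced genes. Socs1, an induced inhibitor of JAK kinases, was at 23.8, 17.5 and 9.72 CPM in the M_WT libraries, 10.5, 3.89 and 2.32 CPM in the M_KO libraries, 6.21 CPM for F_WT and 7.64 CPM for F_KO, with M_KO_5944 above M_WT_6255 (edgeR log2 fold change -1.62 with SE 0.60 and adjusted p = 0.478).

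The genes listed for interferon induction, which include genes that restrain it, had a median near 0. Of 25 tested (of 26 listed), 14 were lower and 11 higher (48.5% of all genes were lower), with a median of -0.04 (range -1.07 to 0.89). EdgeR called 0 (0.022% of all genes), DESeq2 called 0 (1.21%), and 3 had an unadjusted edgeR p under 0.05 (against 9.56% of all genes). The adaptors Myd88 (log2 fold change 0.00, SE 0.11) and Ticam1 (-0.10, SE 0.18), the kinase Tbk1 (-0.04, SE 0.13) and the factor Irf3 (0.17, SE 0.11) had estimates near 0. The 3 genes at an unadjusted p under 0.05 were Trim25, a ubiquitin ligase of the RIG-I pathway (-0.98, edgeR adjusted p = 0.489), the DNA sensor gene Mb21d1, which encodes cGAS (-0.53), and its adaptor Tmem173, which encodes STING and was the one higher in M_KO (0.89).

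Neighbouring sets of inducible genes shared part of this order. Guanylate-binding proteins and immunity-related GTPases, which attack vacuoles of intracellular microbes and respond strongly to interferon gamma, had list means of 4.82, 4.28 and 4.24 in M_WT, 4.91, 3.24 and 1.90 in M_KO, 3.09 for F_WT and 2.41 for F_KO, so that M_KO_5944 was above all M_WT libraries. MHC class I and peptide-loading genes were at 7.70, 7.39 and 7.66 in M_WT and 7.79, 6.48 and 6.61 in M_KO, again with M_KO_5944 highest. NF-kB and inflammatory genes were at 8.84, 8.52 and 8.14 in M_WT and 7.88, 7.72 and 6.94 in M_KO, and in this set M_KO_5944 was below all M_WT libraries. The counts of lower members were 15 of 18, 14 of 15 and 23 of 26 (48.5% of all genes were lower), with medians of -0.83, -0.33 and -0.77, and edgeR called 0, 0 and 0. DESeq2 called 5 genes of the inflammatory set and 0 of each of the others (1.21% of all genes), and at an unadjusted edgeR p under 0.05 there were 0, 0 and 10 (9.56% of all genes). These lists share all libraries, and the differences between lists were not tested.

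**Figure D4:**
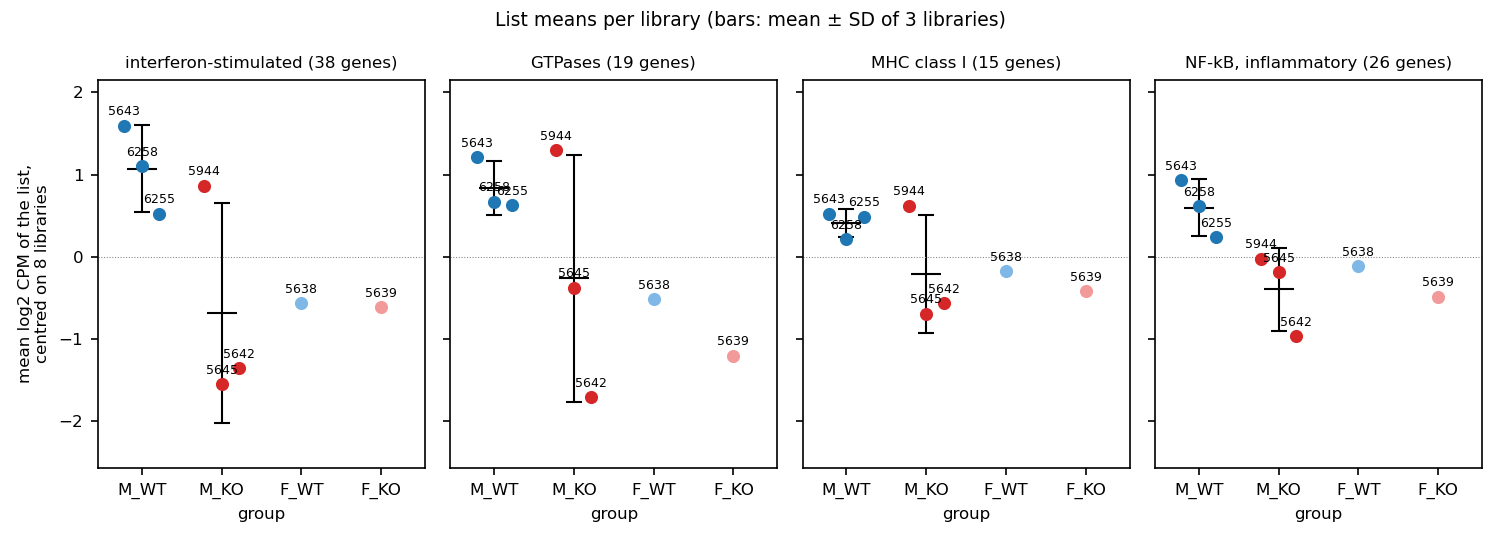
Mean log2 CPM of 4 gene lists per library, centred on the 8 libraries (y axis), by group (x axis), with animal numbers beside the points and mean ± SD for the groups of 3 libraries. For the interferon-stimulated genes M_KO_5944 sits at 0.86 among the M_WT points, far above M_KO_5645 at -1.55 and M_KO_5642 at -1.35, and the F libraries lie between.

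Genes outside the list followed it closely. Likeness was measured as the root mean square difference between a gene's log2 CPM and the score over the 8 libraries, each centred on its own mean, among 10334 protein-coding genes with a mean log2 CPM of at least 1. The closest genes outside the list were Phf11d (0.16), Ifi205 (0.18), Ifi47 (0.20), Ms4a4c (0.20), Fabp7 (0.21), Met (0.21), Slfn8 (0.24), Irgm1 (0.25), Slfn5 (0.29), Sh3bgrl2 (0.30), Igtp (0.30) and Phf11b (0.32), in log2 units. Ifih1 (0.16) and Dhx58 (0.18) were the closest members. Of the 50 closest genes 14 were members, and 36 of the 10334 candidates were members. The median was 0.52 for the 36 members at that level and 1.14 for all candidates. Every member is itself part of the score, so members lie closer to it in part by construction. Slfn5 and Slfn8 belong to the Schlafen family, Ifi205 to the Ifi200 family, and Ifi47, Irgm1 and Igtp to the immunity-related GTPases. Met, the hepatocyte growth factor receptor, was at 69.7, 48.2 and 27.2 CPM in M_WT and 33.8, 8.25 and 10.3 CPM in M_KO, and Fabp7, a fatty acid-binding protein, at 745, 549 and 465 and 499, 109 and 90.02 CPM.

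Markers of cells that could share the lavage were summed per library. Plasmacytoid dendritic cell markers, a cell type known for interferon output, summed to 16.9 to 31.2 CPM in M_WT and 20.8 to 43.2 CPM in M_KO, with Siglech between 0 and 0.391 CPM over the 8 libraries and Klk1 at 0. Conventional dendritic cell markers summed to 76.8 to 103 CPM in M_WT and 51.4 to 66.4 CPM in M_KO, so that all M_KO libraries, M_KO_5944 included, were below all M_WT libraries. The largest part of that sum was Itgax, at 46.3, 51.1 and 65.3 CPM in M_WT and 37.3, 30.6 and 46.3 CPM in M_KO. Cd209a was at 15.3 CPM in M_WT_6258, 14.5 CPM in M_WT_6255 and 0 to 0.154 CPM in the others. Of 7 tested markers, 6 had lower fitted values in M_KO (48.5% of all genes), and 2 were lower without overlap of the M groups (6.95% of all genes). B cell markers summed to 78.8 to 193 CPM in M_WT and 112 to 318 CPM in M_KO, resident large peritoneal macrophage markers to 23887 to 41076 CPM in M_WT and 13450.3 to 43789.7 CPM in M_KO and monocyte markers to 683 to 1690.0 CPM in M_WT and 687 to 2567 CPM in M_KO. M_KO_5642 had the lowest large macrophage sum and the highest monocyte sum of all 8 libraries. Of the 10 large macrophage markers, 7 were lowest there, and F13a1 (1371 CPM) was the largest part of its monocyte sum. The monocyte marker Plac8 was lowest there (9.78 CPM). The mean log2 CPM of the large macrophage markers was 8.27 in M_KO_5642 and 10.15 in M_KO_5645, so the 2 libraries with the lowest score differed in these markers. T and NK cell markers summed to 3.09 to 12.8 CPM in M_WT and 5.35 to 18.1 CPM in M_KO, neutrophil markers to 5.47 to 9.74 CPM in M_WT and 5.74 to 11.7 CPM in M_KO, mast cell and basophil markers, nearly all of it Hdc, to 306 to 762 CPM in M_WT and 103 to 615 CPM in M_KO, and eosinophil markers, most of it Alox15, to 1575 to 2343 CPM in M_WT and 441 to 3111 CPM in M_KO. The mast cell protease Cma1 was at 9.11 CPM in M_KO_5944, 4.97 CPM in M_WT_5643 and 0 in M_KO_5642, with 0.13 to 2.25 CPM in the others, and Cpa3, Mcpt4 and Tpsb2 were likewise highest in M_KO_5944 and M_WT_5643 and at 0 in M_KO_5642. Hdc, Kit and Gata2 of the same list did not share this order. Hdc was at 370 CPM in M_KO_5944, 606 CPM in M_KO_5645 and 1122 CPM in F_KO_5639, its highest. Kit was at 1.60 CPM in M_KO_5642 and 0.81 CPM in M_WT_6255, and Gata2 was highest in F_KO_5639 (1.72 CPM). Stromal and mesothelial markers summed to 4.96 to 12.5 CPM in M_WT and 4.07 to 7.03 CPM in M_KO and erythroid markers to 0 to 0.203 CPM in M_WT and 0.113 to 0.798 CPM in M_KO. Among the macrophage markers, Fcgr1, a high-affinity IgG receptor that interferon also induces, was at 15.5, 16.9 and 12.6 CPM in M_WT and 12.9, 5.12 and 4.31 CPM in M_KO. The part of other cell types in the differences between animals was not tested.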

How the data were processed

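Whole read counts per gene for 8 libraries, not normalized by the authors, were analysed as deposited. Per the submitters' processing notes they came from HISAT2 2.0.5 and featureCounts 1.5.0-p3 on GRCm38 (mm10). Strand setting, treatment of multi-mapping reads and annotation release were details not given in the sources used here. FPKM values, scaled by the authors to gene length and library size, were used for levels per length and in 1 alternative. A comparison table deposited by the authors for the M groups gives log2 fold changes and p-values (DESeq2 1.16.1, per the submitters' processing notes).

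Groups came from the titles. For the M comparison, counts of 6 libraries went into edgeR 4.0.16 under R 4.3.3 (TMM scaling, default expression filter on genotype, quasi-likelihood test, 13646 genes, 4 residual degrees of freedom), with Benjamini-Hochberg adjustment over all tested genes and a threshold of 0.05. SEs were derived from the F statistic. With all 8 libraries (13751 genes), genotype was fitted beside the letter, and then with an interaction. CPM was TMM-scaled over 8 libraries, and scores used a prior count of 2. A fold change from the fit compares group means of counts, while the score averages logs, so they differ in size. Alternatives were DESeq2 1.42.0, limma 3.58.1 (voom, and log2(FPKM + 1)), RLE and upper-quartile scaling, other filters, other prior counts, a covariate for animal numbers beginning with 56, and leaving out each library. The tests were tried on simulated data. Floors cover counting error only. Total counts were 18206427 to 22853583 per library. No pair of the 6 M libraries agreed within sampling noise.

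The genes and lists were chosen with earlier results of these data known. By rule, values in every library are given for the gene with the highest level per length in each role and the largest and smallest fold change. Other values by library were chosen after they were seen. The 12 closest protein-coding genes outside the list are named. A pathway gene counted in the lists is not reported here by name.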

Additional observations from a re-analysis of the deposited data

How the results depend on the processing

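Every fitted value of the 38 genes stayed negative in all 570 combinations of gene and alternative, and 3 passed the threshold: Ifi27l2a with DESeq2, and Irf7 and Oasl1 without M_KO_5944. The number of these genes called by edgeR, 0, was 1 with DESeq2 and 0 to 2 when 1 library was left out. At an unadjusted p under 0.05 the number was 7 (4.22% of all genes were lower at that threshold). It was 13 with DESeq2 (2.85% of all genes), 25 with limma voom (4.82%), 18 on FPKM (4.87%) and 19 with no filter (3.14%). Their median log2 fold change of -1.27 ran from -2.41 (without M_KO_5944) to -0.94 (without M_KO_5642). The score difference of -1.75 ran from -2.53 to -1.32 when 1 library was left out and moved by less than the pooled SD of 1.02 under every other alternative listed for it. In the F pair the score difference was -0.05, and 0.26 with each library scored by its median in place of its mean, a change of sign; the median of the differences per gene was -0.07. Over all genes, the edgeR count of 3 was 188 with DESeq2, 16 with no filter, 1 over 8 libraries, and 0 (without M_WT_6255) to 21 (without M_WT_5643) with 1 library left out, with 5 without M_WT_6258 and 5 without M_KO_5944. The count for genotype over 8 libraries, 1, was 132 with DESeq2 and 0 to 3 with 1 library left out. The interaction count, 3, was 22 with DESeq2 and 0 to 6 with 1 library left out. The cause of these differences was not tested. No paired analysis was possible because the groups share no number. A covariate for numbers beginning with 56 gave 0 calls among the 38 genes and a median of -1.35, and the labels do not say what the numbers mean. M_KO_5645, M_KO_5642, F_WT_5638 and F_KO_5639, the lowest by score, carry such numbers, as does M_WT_5643, the highest. M_WT_6258, M_WT_6255 and M_KO_5944 carry other numbers. The split within M_KO thus runs with the number series and cannot be told apart from it.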

Other observations

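Cxcl10 and Ccl5, chemokine genes that interferon also induces, had M_KO_5944 within the M_WT range and the other M_KO libraries lowest. Cxcl10, whose product attracts T cells, was at 323, 324 and 109.8 CPM in the M_WT libraries, 128, 24.4 and 29.7 CPM in the M_KO libraries, 72.6 CPM for F_WT and 36.3 CPM for F_KO, and Ccl5 at 289, 184 and 67.5 CPM in the M_WT libraries, 111, 5.94 and 8.94 CPM in the M_KO libraries, 25.7 CPM for F_WT and 14.5 CPM for F_KO. Their edgeR log2 fold changes were -2.06 (SE 0.74, adjusted p = 0.478) and -2.10 (SE 1.15, adjusted p = 0.593). H2-T23, a nonclassical MHC class I gene, was at 363, 256 and 324 CPM in the M_WT libraries, 214, 4.87 and 69.3 CPM in the M_KO libraries, 112 CPM for F_WT and 121 CPM for F_KO, with M_KO_5645 far below the other libraries.

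Trex1, a DNA exonuclease that restrains interferon induction, was listed at 0 counts in all 8 libraries. How reads of overlapping genes and multi-mapping reads were treated is unknown, so this sets no limit on its transcript.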
